A study of Mus musculus with 15 samples.

Results

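Interleukin-1 and interleukin-18 are related cytokines of innate immunity, and 8 genes of their ligands, receptors and inhibitors, Il1a, Il1b, Il1rn, Il1r1, Il1r2, Il18, Il18r1 and Il18bp, were followed in colon mucosa. Members were taken by gene name: all non-control probes that the scanner files assign to one of these symbols, which gave 14 probes among the 56504 probes kept. A gene counted as measured when 5 or more of the 15 arrays read one of its probes well above background, which held for 7 of the 8 members and for 22013 genes in all. No IL-36 gene is among the 8, so those relatives are described separately further on.

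All mice were female Balb/cJ animals, 8 weeks old at the start, and the tissue was mucosa scraped from the distal colon. DSS (dextran sodium sulfate) is a polymer that injures the colon lining when drunk and models colitis; it was given at 4% in the drinking water for 3 cycles of 4 days, with washouts of 3 days. One group of 5 mice had DSS and filgotinib, an oral inhibitor that prefers the kinase JAK1, at 30 mg/kg by gavage each day. A second group of 5 had DSS and the filgotinib vehicle. The third group of 5 had drinking water without DSS; the labels name a vehicle control as its compound while the design text mentions water only, so whether these mice were gavaged is not settled. Each mouse has 1 single-colour Agilent array. Values below are log2 signals minus the 75th percentile of the same array, so a value of 0 is a signal at that percentile, and n = 5 mice per group throughout.

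In background terms, Il1a and Il1b encode the agonist ligands of the family, Il1r1 their signalling receptor, Il1rn a secreted antagonist that occupies that receptor, and Il1r2 a decoy receptor that binds the ligand without signalling. Interleukin-1 beta is made by myeloid cells as an inactive precursor that inflammasome caspases cut. Interleukin-18 is stored as a precursor in colon epithelium, is cut in the same way, acts on lymphocytes through Il18r1, and is neutralised by the binding protein that Il18bp encodes.

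The promoters of the ligand and of the antagonist are shown because Il1b and Il1rn were the 2 members that passed the test between DSS vehicle mice and water mice. They are RefSeq windows of GRCm38.p6, from 250 bases before to 50 bases after an annotated start, all 3 on chromosome 2. The Il1b window is chr2:129371090-129371389 on the minus strand, and the Il1rn windows, from 2 of its annotated starts, are chr2:24336610-24336909 and chr2:24345121-24345420 on the plus strand. Capitals mark matches to any of 6 motifs searched on both strands.
Il1b: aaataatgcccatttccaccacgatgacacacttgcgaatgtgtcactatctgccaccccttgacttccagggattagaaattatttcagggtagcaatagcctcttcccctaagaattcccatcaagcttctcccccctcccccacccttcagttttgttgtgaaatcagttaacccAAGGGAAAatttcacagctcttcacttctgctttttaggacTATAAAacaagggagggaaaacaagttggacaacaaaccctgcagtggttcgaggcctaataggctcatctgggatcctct
Il1rn, first start: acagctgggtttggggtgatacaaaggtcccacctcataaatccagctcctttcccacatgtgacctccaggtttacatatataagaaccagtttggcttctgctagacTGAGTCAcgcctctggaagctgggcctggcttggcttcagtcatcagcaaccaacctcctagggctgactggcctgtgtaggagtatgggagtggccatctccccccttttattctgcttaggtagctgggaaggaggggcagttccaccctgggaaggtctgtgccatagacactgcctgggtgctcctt
Il1rn, later start: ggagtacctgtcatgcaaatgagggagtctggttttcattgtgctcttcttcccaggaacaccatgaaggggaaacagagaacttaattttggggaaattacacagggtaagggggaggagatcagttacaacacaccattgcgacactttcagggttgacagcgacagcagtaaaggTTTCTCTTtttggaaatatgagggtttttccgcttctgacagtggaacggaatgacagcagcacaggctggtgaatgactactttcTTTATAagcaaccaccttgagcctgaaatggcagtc
The motifs were GAS as TTCNNNGAA, the IRF core as AANNGAAA, AP-1 as TGANTCA, C/EBP as TTGCNNAA, the TATA box as TATAAA, and the NF-kB consensus, and no printed matches overlap. The Il1b window holds TATAAA beginning at base -31 from the start and AAGGGAAA, an IRF core match, at -72. The first Il1rn window holds only TGAGTCA, an AP-1 match, at -141. The later Il1rn window holds a reverse IRF core match at -72 and a reverse TATAAA match at base 15. Of the 32851 RefSeq promoter windows, 13.6% hold the TATA box letters, 23.9% the IRF core letters and 7.81% the AP-1 letters. Over the 13 windows of all 8 members, the GAS letters, which 8.3% of all windows hold, occur in windows of Il1r2 and Il18r1. C/EBP letters, held by 10.8% of all windows, occur in windows of Il1r1 and Il18bp. The NF-kB consensus, held by 5.8% of all windows, occurs in none of the 13. These matches describe letters in short windows and say nothing on binding.

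Of the probes, the ones below are shown because each reads the ligand or the antagonist at another stretch of the transcript than the brighter probe used for its values. Both lie on chromosome 2 in mm9 coordinates given by the scanner files, the Il1b probe at chr2:129190880-129190939 on the minus strand and the Il1rn probe at chr2:24205094-24205153 on the plus strand.
Il1b probe A_66_P114500: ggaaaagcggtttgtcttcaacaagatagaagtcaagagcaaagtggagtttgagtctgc
Il1rn probe A_55_P1962400: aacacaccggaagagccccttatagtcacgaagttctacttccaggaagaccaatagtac

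Over the whole data set, the 75th percentile of the signal was 552 to 663 in filgotinib mice, 570 to 667 in DSS vehicle mice and 684 to 813 in water mice, and 50.2% to 62.1% of probes were well above background. Replicate arrays correlated at r between 0.974 and 0.995 across genes. All 13 epithelial markers listed for colon were measured. The arrays came from 6 slides and 4 scan days. Slide 2 carried DSS vehicle mouse 2 with water mice 3 and 5, and slide 3 carried filgotinib mice 1 and 2 with DSS vehicle mice 1, 4 and 5, while the other slides held 1 group each.

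The first question is what DSS did to these genes. Il1b rose 4.66-fold in DSS vehicle mice over water mice, and Il1rn, the receptor antagonist, rose 1.71-fold. The other 5 measured members did not pass the test, although Il18bp, Il1r2 and Il18 had unadjusted p-values under 0.05 in limma. No share of all genes is given here for that looser threshold. So 2 of the 7 measured members rose and none fell, against 19.2% of all measured genes called, 10.8% higher and 8.41% lower. Of all calls 56.1% were higher in DSS vehicle mice, but 37.9% with arrays centred on the median and 66.4% after normexp background correction. In bulk mucosa, fewer cells of a type and less RNA per cell cannot be told apart.

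Il1b read -2.92, -3.09, -1.07, -2.03 and -1.90 in DSS vehicle mice 1 to 5, against -4.25, -5.22, -4.39, -4.49 and -3.75 in water mice 1 to 5. Every DSS vehicle mouse lay above every water mouse, with mouse 3 highest. The means were -2.20 ± 0.82 in DSS vehicle mice and -4.42 ± 0.53 in water mice (SD). The log2 fold change was 2.22 ± 0.52 (SE), with a 95% interval of 1.11 to 3.33 and an adjusted p of 0.00982 in the limma fit over all genes. Il1b was dim: the processed signal was 76.2 to 272 in DSS vehicle mice and 21.4 to 60.2 in water mice, and 1 water array was not well above background. The 2 dimmer Il1b probes, well above background on 2 arrays and 1 array, had differences of 1.90 and 2.44 between these groups, with no adjusted p, since they did not pass the filter.

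Within slide 2, the only slide with both groups, DSS vehicle mouse 2 exceeded the mean of 2 water mice by 0.98 for Il1b and by 0.80 for Il1rn. With slide as a fixed block, which rests on those 3 arrays, the adjusted p was 0.723 for Il1b and 0.234 for Il1rn, and both calls were lost. Within the first scan day, which holds 3 mice of each of these groups, the differences were 2.37 for Il1b and 0.61 for Il1rn. After normexp background correction, which pulls dim signals together, Il1b differed by 1.25 with an adjusted p of 0.0028.

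Il1rn read 2.79, 2.69, 3.14, 2.73 and 2.67 in DSS vehicle mice, against 1.93, 2.21, 1.54, 2.22 and 2.24 in water mice. Here too the groups did not overlap, and the spread was small: means were 2.80 ± 0.19 in DSS vehicle mice and 2.03 ± 0.30 in water mice (SD). The log2 fold change was 0.78 ± 0.16 (SE, adjusted p = 0.00511, limma). The second Il1rn probe, printed above, gave 0.71 ± 0.16 (SE, adjusted p over probes = 0.0095, limma). That probe read -0.79, -0.78, -0.27, -0.94 and -0.93 in DSS vehicle mice, against -1.58, -1.41, -1.74, -1.34 and -1.19 in water mice. Both probes of the antagonist separated the groups and passed the test.

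Within arrays, the ligand was also set against its inhibitors. The log2 difference Il1b minus Il1rn was on average 1.44 higher in DSS vehicle mice than in water mice, and the difference Il1b minus Il1r2 was 1.09 higher. Between filgotinib mice and DSS vehicle mice these 2 differences were -1.09 and -0.94, and Il18 minus Il18bp was 0.63 higher in filgotinib mice. These contrasts compare changes, not amounts, because the probes differ, and they were not tested.

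**Figure D1:**
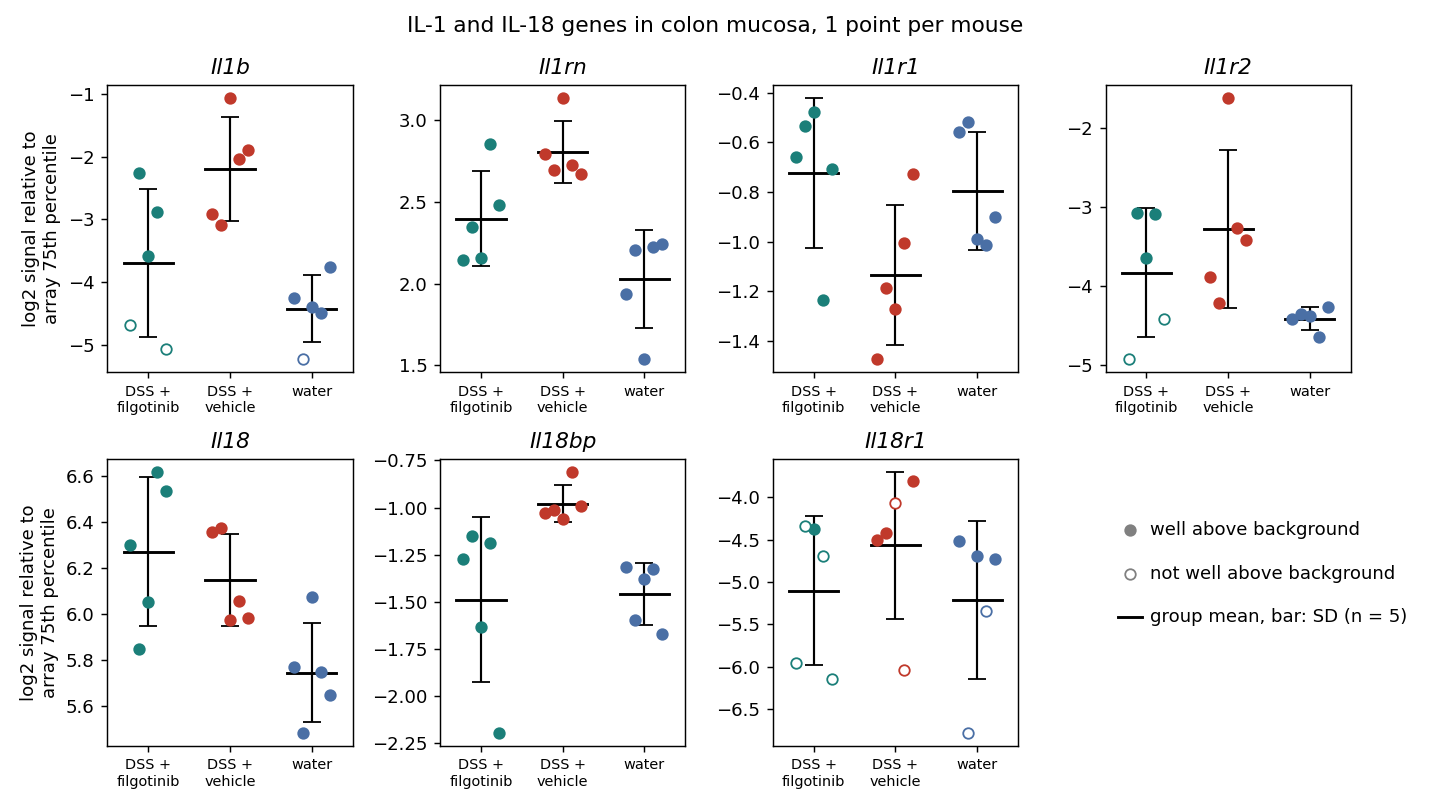
Log2 signal relative to the array's 75th percentile (vertical axis, own scale per panel) for 7 members, 1 point per mouse, in DSS with filgotinib, DSS with vehicle and water; open points are not well above background, lines are means and bars SD (n = 5). Il1b and Il1rn of all DSS vehicle mice lie above those of all water mice, while filgotinib mice spread from -5.06 to -2.26 for Il1b.

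Il1r2, the decoy receptor, read -3.88, -4.22, -1.62, -3.26 and -3.42 in DSS vehicle mice, against -4.41, -4.35, -4.38, -4.64 and -4.26 in water mice. The groups did not overlap, but the nearest mice, at -4.22 and -4.26, were close together, and DSS vehicle mouse 3 stood highest. The log2 fold change was 1.13 ± 0.44 (SE, adjusted p = 0.0856, limma) and 0.72 (adjusted p = 0.166) without that mouse. Il1r1, the signalling receptor, read -1.47, -1.19, -1.27, -1.0 and -0.73 in DSS vehicle mice, against -0.56, -0.52, -0.99, -1.01 and -0.90 in water mice. The groups overlapped, and the difference of -0.34 ± 0.17 (SE) had an adjusted p of 0.167 in limma. Its 95% interval ran from -0.69 to 0.02.

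Il18 gave bright spots, with processed signals of 35846 to 55182 in DSS vehicle mice and 35818 to 51453 in water mice. These ranges overlap before scaling. The 75th percentile used for scaling was 570 to 667 in DSS vehicle mice and 684 to 813 in water mice. It read 6.35, 6.37, 5.97, 6.06 and 5.98 in DSS vehicle mice, against 5.77, 5.48, 6.07, 5.75 and 5.65 in water mice. Only water mouse 3 reached into the DSS vehicle range, and the difference of 0.40 ± 0.15 (SE) did not pass the test (adjusted p = 0.0774, limma).

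Il18bp, the soluble inhibitor of interleukin-18, read -1.03, -1.01, -1.06, -0.81 and -0.99 in DSS vehicle mice, against -1.32, -1.60, -1.38, -1.32 and -1.67 in water mice. All DSS vehicle mice lay above all water mice, yet the difference of 0.48 ± 0.17 (SE) missed the threshold (adjusted p = 0.0586, limma). The second Il18bp probe gave 0.29 (adjusted p over probes = 0.236, limma). Il18r1 was near the limit of detection, well above background in 3 DSS vehicle mice and 3 water mice. It read -4.50, -4.42, -4.07, -6.03 and -3.81 in DSS vehicle mice, against -4.51, -6.78, -4.69, -5.35 and -4.73 in water mice, and differed by 0.65 ± 0.52 (SE, adjusted p = 0.408, limma).

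Il1a was not well above background on any of the 15 arrays, so it has no value here. In all, 4 members had groups that did not overlap, all higher in DSS vehicle mice, where 9.84% of all measured genes had no overlap in that direction, 6.2% in the other and 16% in either.

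**Figure D2:**
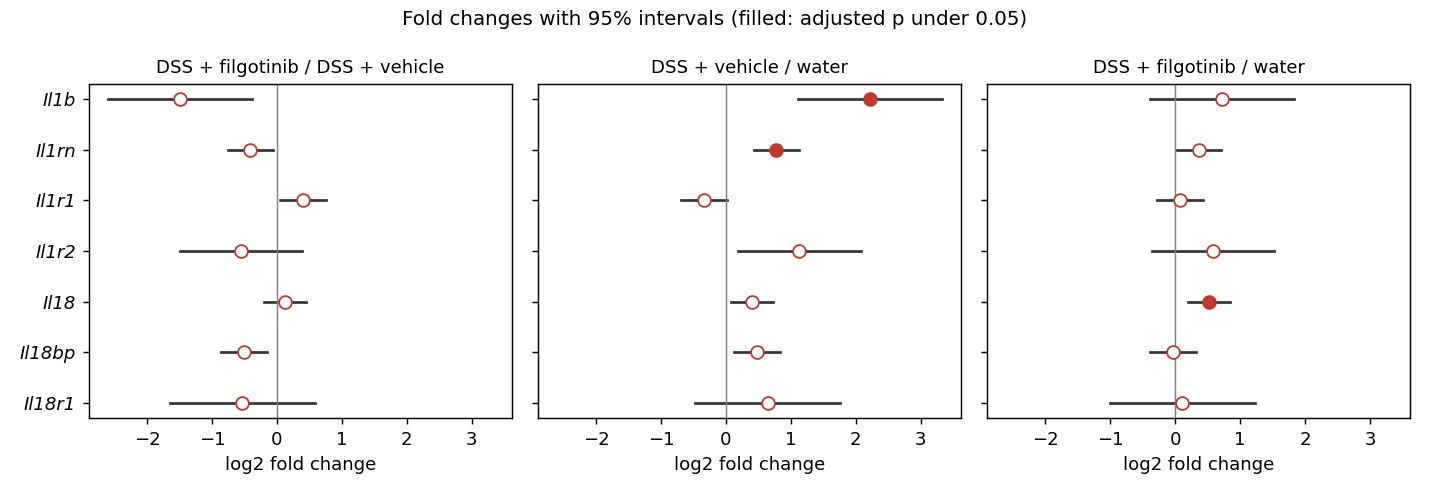
Log2 fold changes of the 7 measured members (horizontal axis) with 95% intervals from limma, for filgotinib over DSS vehicle, DSS vehicle over water and filgotinib over water; filled points have an adjusted p under 0.05. Only Il1b (2.22) and Il1rn (0.78) in the middle panel and Il18 (0.53) in the right panel are filled.

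Cell type markers moved in the same comparison. Of 12 measured neutrophil markers of 18 listed, 5 rose, S100a9 by 3.85, Ltf by 1.66, Ly6g by 0.60 and Fpr2 by 0.60 in log2 among them, beside 3 with arrays centred on the median. The Ly6g call was lost without any single DSS vehicle mouse or without water mouse 1, 2, 4 or 5, with an adjusted p of at most 0.0900. The summed neutrophil level, in multiples of the array's 75th percentile, was 199 to 217 in DSS vehicle mice and 164 to 190.1 in water mice. Its median was 203 in DSS vehicle mice and 173 in water mice, a small change beside that of S100a9. Sums of linear signals weigh the brightest markers most. Over the 12 neutrophil markers the median log2 difference was 0.25, beside 0.05 over all measured genes. Cxcr2, Ngp, Retnlg, Mmp9, Fpr1 and Hcar2 of that list did not pass the filter. Macrophage and monocyte markers summed to 244 to 317 in DSS vehicle mice and 146 to 180 in water mice, with 1 of 14 rising, Ly6c2 by 1.21. Epithelial markers summed to 2501 to 2710 in DSS vehicle mice and 2023 to 2346 in water mice, with 7 of 13 rising under the percentile scaling but 1 of 13 with arrays centred on the median. Mast cell markers showed 4 rises and 1 fall among 9, and 3 of 12 T and NK cell, 2 of 8 B cell and 2 of 7 squamous markers rose, while no fibroblast, smooth muscle or endothelial marker was called. The median log2 difference was nevertheless 1.45 for 10 fibroblast markers, 1.24 for 6 smooth muscle markers and 0.47 for 6 endothelial markers, and 3 fibroblast markers were called with only the 2 groups in the fit. Fibroblast markers summed to 14.5 to 79.2 in DSS vehicle mice and 5.60 to 31.6 in water mice, and smooth muscle markers to 28.7 to 97.1 in DSS vehicle mice and 22.8 to 30.9 in water mice. The part of these shifts in the Il1b, Il1rn and Il18 differences was not tested.

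The second question is what filgotinib changed in DSS mice. No member passed the test, against 11.3% of all measured genes called, 6.79% higher and 4.53% lower, and 60.0% of those calls were higher in filgotinib mice, or 73.6% with arrays centred on the median. Il1b was 2.81-fold lower in filgotinib mice, Il18bp 1.42-fold lower and Il1rn 1.33-fold lower, all with adjusted p-values above 0.05. These 3 and Il1r1, which was 1.33-fold higher, had unadjusted p-values under 0.05 in limma. That is a looser threshold, for which no share of all genes is given here.

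Il1b read -4.68, -2.26, -3.57, -2.89 and -5.06 in filgotinib mice 1 to 5, next to -2.92, -3.09, -1.07, -2.03 and -1.90 in DSS vehicle mice. The filgotinib mice were uneven: mice 1, 3 and 5 lay below every DSS vehicle mouse, while mice 2 and 4 lay inside that group's range. Arrays of mice 1 and 5 were not well above background. The mean was -3.69 ± 1.18 in filgotinib mice and -2.20 ± 0.82 in DSS vehicle mice (SD), a difference of -1.49 ± 0.52 (SE) with a 95% interval of -2.60 to -0.38 and an adjusted p of 0.0757 in limma. Leaving out filgotinib mouse 2 gave -1.85 with an adjusted p of 0.0395 in limma, and normexp gave -0.62 with 0.123. Within slide 3, where 2 filgotinib and 3 DSS vehicle mice met, the difference was -1.19.

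Il1rn read 2.15, 2.35, 2.16, 2.86 and 2.48 in filgotinib mice, against 2.79, 2.69, 3.14, 2.73 and 2.67 in DSS vehicle mice. Only filgotinib mouse 4 was within the DSS vehicle range. The difference was -0.41 ± 0.16 (SE, adjusted p = 0.112, limma), and -0.52 (adjusted p = 0.0396) without mouse 4. The second Il1rn probe gave -0.48 ± 0.16 (SE, adjusted p over probes = 0.0755, limma).

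Il18bp read -1.27, -1.15, -1.63, -1.19 and -2.19 in filgotinib mice, all below the DSS vehicle mice, which lay between -1.06 and -0.81. It was the only member of the 7 with no overlap between these groups; 3.12% of all measured genes had none in that direction, 4.87% in the other and 7.99% in either. The difference was -0.51 ± 0.17 (SE, adjusted p = 0.0624, limma), and -0.58 (adjusted p = 0.0441) without filgotinib mouse 4. Within slide 3 it was -0.27. The second probe gave -0.39 ± 0.16 (SE, adjusted p over probes = 0.138, limma).

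Il1r1 went the other way. It read -0.66, -0.53, -0.48, -1.24 and -0.71 in filgotinib mice, against -1.47, -1.19, -1.27, -1.0 and -0.73 in DSS vehicle mice, so filgotinib mice 1, 2, 3 and 5 lay above the whole DSS vehicle group. The difference of 0.41 ± 0.17 (SE) had an adjusted p of 0.12 in limma; it passed with arrays centred on the median (0.49, adjusted p = 0.0461) and without filgotinib mouse 4 (0.54, adjusted p = 0.0343).

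Il1r2 read -4.92, -3.07, -3.65, -3.08 and -4.41 in filgotinib mice, against -3.88, -4.22, -1.62, -3.26 and -3.42 in DSS vehicle mice. Filgotinib mice 1 and 5, whose arrays were not well above background, lay below the DSS vehicle range and the others inside it. Its difference was -0.55 ± 0.44 (SE, adjusted p = 0.444, limma). Il18 read 6.30, 5.85, 6.05, 6.62 and 6.53 in filgotinib mice, with mice 4 and 5 above and mouse 2 below the DSS vehicle range. It differed from DSS vehicle mice by 0.12 ± 0.15 (SE, adjusted p = 0.641, limma). The 95% interval for Il18, -0.20 to 0.45, spans changes of either sign. Il18r1 was well above background in 1 filgotinib mouse, read between -6.14 and -4.34 in this group, and differed by -0.53 ± 0.52 (SE, adjusted p = 0.54, limma).

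**Figure D3:**
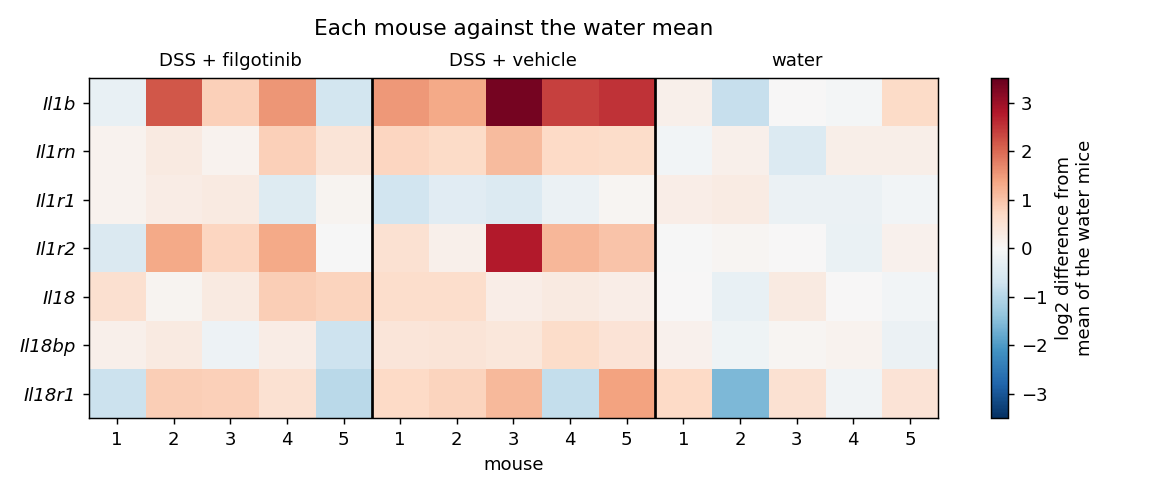
Log2 difference of each mouse from the mean of the water mice (colour) for the 7 measured members (rows) in mice 1 to 5 of each group (columns). Il1b and Il1r2 are highest in DSS vehicle mouse 3, and among filgotinib mice Il1b is above the water range in mice 2, 3 and 4.

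Beside the Il1b values of the filgotinib comparison, 1 of 12 neutrophil markers fell, S100a9 by 3.12 in log2, with 2 filgotinib arrays well above background. That call was lost without filgotinib mouse 1 or DSS vehicle mouse 1 or 5 (-2.80 at the smallest of these). It was also lost with the replicate block, with slide or scan day as a fixed block, and with only the 2 groups in the fit. In the same comparison the summed neutrophil level was 177 to 189 in filgotinib mice and 199 to 217 in DSS vehicle mice. This sum again weighs the brightest markers most. The median log2 difference of the 12 neutrophil markers was -0.14, beside 0.00 over all measured genes. Macrophage and monocyte markers summed to 157 to 314 in filgotinib mice and 244 to 317 in DSS vehicle mice, with none of 14 called. T and NK cell markers, beside Il18bp, summed to 9.09 to 10.8 in filgotinib mice and 9.91 to 12.3 in DSS vehicle mice. Of 12 such markers 2 fell, Gzma by 0.92 and Nkg7 by 0.82, or 16.7% beside 11.3% of all measured genes. None was called with normexp or with slide as a fixed block. Only 1 was called with the replicate block, scan day as a fixed block, the 2-group fit or no filter on dim probes. The part of these marker shifts in the member differences was not tested. Of the other marker lists, mast cell markers showed 1 rise and 4 falls among 9, and none of 13 epithelial, 8 B cell, 10 fibroblast, 6 smooth muscle, 6 endothelial or 7 squamous markers was called. The fibroblast median was -1.19 in log2, with sums of 3.10 to 64.7 in filgotinib mice and 14.5 to 79.2 in DSS vehicle mice.

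The third comparison sets filgotinib-treated DSS mice against water mice; it shares its groups with the other comparisons, so it is no separate evidence. Il18 rose 1.44-fold and was the only member called, 1 of 7, against 9.81% of all measured genes, 6.41% higher and 3.4% lower; of all calls 65.3% were higher in filgotinib mice, but 48.8% with arrays centred on the median and 83.3% after normexp. No member had groups without overlap, where 9.57% of all measured genes did, 6.75% higher and 2.82% lower. The Il18 means were 6.27 ± 0.32 in filgotinib mice and 5.74 ± 0.22 in water mice (SD), and filgotinib mice 1, 4 and 5 lay above every water mouse. Before scaling the processed Il18 signals were 38198 to 54119 in filgotinib mice and 35818 to 51453 in water mice. The log2 fold change was 0.53 ± 0.15 (SE, adjusted p = 0.0441, limma). This call was fragile: leaving out filgotinib mouse 1, 4 or 5, DSS vehicle mouse 4 or 5, or water mouse 1, 2, 4 or 5 moved the adjusted p above 0.05, to at most 0.108, and so did median centring (0.106), quantile normalization (0.152) and slide as a fixed block (0.667). Within the first scan day the difference was 0.66. Epithelial markers summed to 2265 to 2617 in filgotinib mice and 2023 to 2346 in water mice, with 3 of 13 rising, but none with arrays centred on the median, with quantile normalization or in the deposited table; their part in the Il18 difference was not tested.

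The other members did not pass the test against water mice. Il1b differed from water mice by 0.73 ± 0.52 (SE, adjusted p = 0.381, limma), with a 95% interval of -0.38 to 1.84, and Il1rn by 0.37 ± 0.16 (SE, adjusted p = 0.145, limma). Il18bp differed by -0.03, with an interval of -0.39 to 0.33, and Il1r1 by 0.07, with an interval of -0.28 to 0.43. In order of group means, Il1b, Il1rn, Il1r2 and Il18r1 ran DSS vehicle, filgotinib, water; of these neighbours in order, no pair passed the test. Il18 ran filgotinib, DSS vehicle, water, and Il18bp ran DSS vehicle, water, filgotinib. Il1r1 ran filgotinib, water, DSS vehicle.

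Relatives of the members, in the list of 13 other ligands and receptors of the family, were mostly undetected. No array read Il36a, Il36g, Il1f10, Il18rap, Il1rapl1 or Il1rapl2 well above background, and 1 array did so for Il36rn. In DSS vehicle mice against water mice, 2 of the 6 measured relatives rose and 1 fell, with a median of 0.14 in log2 beside 0.05 over all measured genes. That is 50% of the 6 beside 19.2% of all measured genes, with 1 call when slide was a fixed block. Il1rl1 passed the filter without any water array, and 7 of the 13 relatives did not pass. This count and median are therefore a description only. Il1rl1, the receptor for interleukin-33, was at least 36.5-fold higher (adjusted p = 0.000341, limma), with no water array well above background. Such a bound sets the mean of the bright group against a floor for each dim array, the lowest signal well above background there or, if higher, what the probe itself read. Il33 itself fell 12.4-fold (adjusted p = 0.000193, limma) and was well above background in 3 DSS vehicle mice. Il1rl2, the receptor for IL-36 cytokines, rose by 0.57 in log2 (adjusted p = 0.0389, limma), a call lost when DSS vehicle mouse 2, 3, 4 or 5 or water mouse 1, 3, 4 or 5 was left out (0.48 at the lowest).

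In filgotinib mice against DSS vehicle mice, 1 of the 6 rose and 2 fell, with a median of -0.36 beside 0.00 over all measured genes. That is 50% of the 6 beside 11.3% of all measured genes. Il1rl1 passed the filter largely through DSS vehicle mice, so this count and median are also a description only. Only 1 was called with the replicate block, with scan day as a fixed block or without the filter on dim probes. None was called with slide as a fixed block or with only the 2 groups in the fit. Il1rl1, well above background in 2 filgotinib mice and 5 DSS vehicle mice, fell 12.3-fold on the measured signals, and Il33 rose 2.93-fold, with adjusted p of 0.013 and 0.0365 in limma. The Il33 call was lost without filgotinib mouse 1, 2, 3 or 5 or DSS vehicle mouse 1, 2 or 4, with a log2 change of 1.23 at the lowest. Sigirr, an inhibitory receptor of the family, fell by 0.26 in log2 (adjusted p = 0.0334, limma), a call lost without filgotinib mouse 1, 2 or 5 or DSS vehicle mouse 1, 2 or 4 and with arrays centred on the median (-0.18). Il1rap, the shared signalling chain of the IL-1 and IL-33 receptors, differed by less than 0.1 in log2 in all 3 comparisons with its brighter probe. The IL-36 beta gene, which the files call Il1f8, averaged -4.88 in filgotinib mice, -4.42 in DSS vehicle mice and -4.12 in water mice. Counting either of its 2 probes, it was well above background in 2 filgotinib, 2 DSS vehicle and 5 water mice. Its means in both DSS groups therefore rest largely on readings near background. This gene was the other relative, beside Il33, called lower in filgotinib mice than in water mice, but after normexp its difference turned from -0.75 to 0.06.

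Next to the members, the genes that process their precursors were counted. Of 25 measured inflammasome and processing genes of 27 listed, 7 rose and 2 fell in DSS vehicle mice against water mice, with a median change of 0.21 in log2 beside 0.05 over all measured genes. That is 36.0% of the list beside 19.2% of all measured genes, with 5 calls when arrays were centred on the median and none with slide as a fixed block. Casp1, the protease that cuts both precursors, rose by 0.58 (adjusted p = 0.00342, limma) and Casp4, of the noncanonical inflammasome, by 0.94. Mefv, the pyrin sensor, rose by 1.72 with its brighter probe and by 0.52 with the other. Nlrp3, a sensor gene, was called lower by 0.61 but was well above background in only 2 DSS vehicle mice, its sign turned after normexp (0.03), and the call was lost without DSS vehicle mouse 3 or 5. In filgotinib mice against DSS vehicle mice 2 of the 25 rose, Nlrp3 by 0.61 and Ninj1, which ruptures the membrane of dying cells, by 0.29. Nek7, an Nlrp3 partner, fell by 0.28. These are 12% of the list beside 11.3% of all measured genes, 1 was called with only the 2 groups in the fit, and none with slide as a fixed block. The Ninj1 call was lost in 11 and the Nlrp3 call in 8 of 15 fits that left out 1 mouse each (0.21 and 0.52 at the smallest), and Nlrp3 was well above background in 3 filgotinib mice and 2 DSS vehicle mice.

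Of 35 genes of IL-1 receptor signalling, all measured, 3 rose and 1 fell in DSS vehicle mice against water mice, with a median of 0.05. That is 11.4% of the list, below the 19.2% of all measured genes, and 1 was called with arrays centred on the median and none with slide as a fixed block. Rel, an NF-kB subunit, rose by 0.48, Zc3h12a, an RNase that limits cytokine mRNAs, by 0.48, and the receptor kinase gene Irak2 by 0.40, while the ubiquitin ligase gene Peli2 fell by 0.46. The Rel call was lost without DSS vehicle mouse 1 or 2 or water mouse 2, 4 or 5, the Zc3h12a call without water mouse 4, and the Peli2 call without DSS vehicle mouse 4 or 5 or water mouse 2, 3, 4 or 5. In filgotinib mice against DSS vehicle mice 1 rose and 3 fell, again 11.4% of the list, beside 11.3% of all measured genes, and 2 were called with slide as a fixed block. Peli2 rose by 0.66, whereas Zc3h12a fell by 0.83, Map2k6, a kinase upstream of p38, by 0.63, and Irak4, the receptor-proximal kinase, by 0.38, a call lost without filgotinib mouse 1, 2 or 5 or DSS vehicle mouse 1, 2 or 5. The second Zc3h12a probe disagreed, at 0.12.

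Genes known to be induced by interleukin-1 in other settings were counted too. Of 28 listed 19 were measured, and 12 rose and none fell in DSS vehicle mice against water mice, with a median of 1.76 in log2, which is 63.2% of those measured beside 19.2% of all genes. Of the 12, 4 had no water array well above background and so passed the filter through the other groups, which makes the count and the median a description only. The matrix metalloproteinase genes Mmp10, Mmp13 and Mmp3 were at least 30.3-fold, 14.9-fold and 9.5-fold higher, and the neutrophil chemokine Cxcl5 at least 11.51-fold higher. In filgotinib mice against DSS vehicle mice 1 rose and 7 fell, with a median of -1.08, or 42.1% beside 11.3% of all measured genes. Genes read mainly in DSS vehicle mice passed the filter largely through that group, so this count and median are also a description only. Saa3, an acute-phase gene detected on all arrays of both groups, was 10.7-fold lower in filgotinib mice. Mmp10, Mmp13 and Cxcl5 were 19.5-fold, 15.7-fold and 9.17-fold lower on the measured signals, but each was well above background in 1 filgotinib mouse, so these sizes rest largely on readings near background. In that comparison 5 of the 19 were called with only those 2 groups in the fit, and 2 with slide as a fixed block. Many other signals induce these genes too, and with slide as a fixed block none was called in the DSS comparison.

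**Figure D4:**
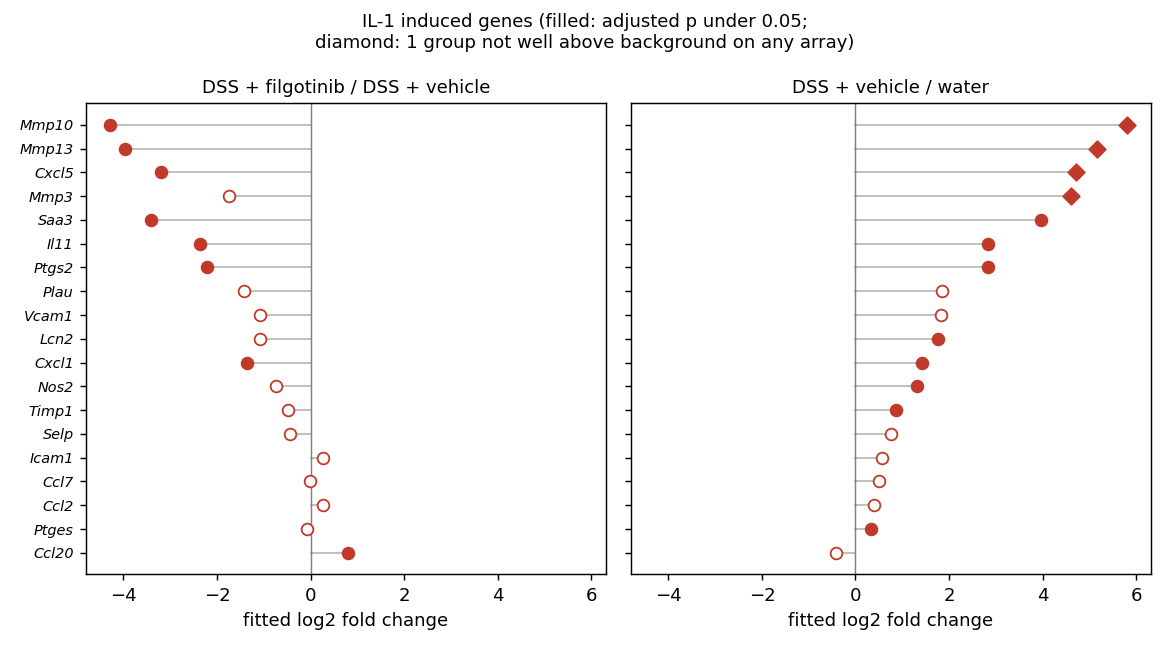
Fitted log2 fold change (horizontal axis) of the 19 measured IL-1 induced genes, for filgotinib over DSS vehicle at left and DSS vehicle over water at right, in the order of the right panel; filled points have an adjusted p under 0.05, and diamonds mark genes not well above background on any array of 1 group. The right panel holds 12 filled points, all above 0, and the left panel 7 filled points below 0 and 1 above; both panels share the DSS vehicle mice.

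Downstream of interleukin-18, 11 of 18 genes of type 1 lymphocyte responses were measured, and Ifng, the main product of interleukin-18 signalling, was not. In DSS vehicle mice against water mice 2 of the 11 rose and none fell, with a median of 0.59, which is 18.2% of the list beside 19.2% of all measured genes; Irf1, an interferon-response regulator, rose by 0.60. In filgotinib mice against DSS vehicle mice only Gzma, a granule protease of cytotoxic lymphocytes, passed (log2 change -0.92, list median -0.42, 9.09% of the list beside 11.3% of all measured genes), a call lost without filgotinib mouse 2 or 5 or DSS vehicle mouse 5 (-0.79 at the smallest).

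Against water mice, filgotinib mice had 2 of 6, 1 of 25, 3 of 35, 2 of 19 and 1 of 11 genes called in these 5 lists. That is 33.3%, 4%, 8.57%, 10.5% and 9.09% of the lists, beside 9.81% of all measured genes. The IL-36 beta gene passed the filter largely through water mice and Cxcl5 largely through DSS vehicle mice. The shares of the relatives and of the IL-1 induced genes are therefore a description only. Among the relatives none rose and 2 fell, Il33 4.24-fold (adjusted p = 0.0154, limma) and the IL-36 beta gene. Pycard, the inflammasome adaptor, rose by 0.39, the only call of the processing list. That call was lost without filgotinib mouse 2, 4 or 5 or any single water mouse, and also with median centring, quantile normalization, the deposited table, the mean of probes, the replicate, slide or scan-day blocks and the 2-group fit. In receptor signalling 2 rose and 1 fell: Irak2 by 0.37 and the ubiquitin ligase gene Peli1 by 0.31, both with a further probe below 0, while Nfkbiz, an NF-kB cofactor, fell by 0.64. The Peli1 call was lost in 7 and the Nfkbiz call in 6 of 15 fits that left out 1 mouse each. Of the IL-1 induced genes Cxcl5 was called higher and Ptges, a prostaglandin E synthase, rose by 0.24. For Cxcl5 no water array and only 1 filgotinib array were well above background, so no size is given. After normexp 4 of the 19 were called and after quantile normalization none. Irf1 rose by 0.49, the only call among the type 1 response genes. In the fits that left out 1 mouse each, the Ptges call was lost in 8, the Irf1 call in 6 and the Cxcl5 call in 4 of 15. Of the IL-36 beta gene the call was lost without filgotinib mouse 4 or 5 or water mouse 2 or 3.

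The genes whose patterns were most like each member's were ranked by Pearson correlation over the 15 arrays, a description in which arrays share groups and slides. Il1b was nearest to Sema7a (r = 0.96), Clec7a, a fungal glucan receptor of myeloid cells (0.95), and Fpr2, a formyl peptide receptor of phagocytes (0.94); after subtracting group means these were 0.91, 0.90 and 0.88. Il1rn was nearest to Pglyrp1, a peptidoglycan-binding protein (0.96), Bfsp1 (0.92) and Spink4 (0.91), or 0.91, 0.84 and 0.76 after subtracting group means. Il1r2 was nearest to Tnfrsf23 (0.94), Itgb8 (0.91) and Hs3st1 (0.89), and Il1r1 to Wdr35 (0.90), Camk1d (0.87) and Cyp2j9 (0.87). Il18 was nearest to Immp1l (0.95), Tmem59 (0.95) and Ubb (0.94). Il18bp was nearest to Nkg7, a granule protein of cytotoxic lymphocytes (0.89), and to the interferon-induced genes Oas3 (0.89) and Ifit2 (0.88), or 0.79, 0.89 and 0.78 after subtracting group means. Il18r1, read near background, was nearest to Nat3 (0.87), 4930473O22Rik (0.84) and Scgb1b7 (0.84). Between members, Il1b and Il1r2 correlated at 0.87, and at 0.85 after subtracting group means, while Il1b and Il18 correlated at 0.11 and -0.45.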

How the data were processed

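Mucosal RNA of 15 mice was hybridised to 1-colour Agilent arrays. Per the file headers, the intensity of each spot is Agilent Feature Extraction 11.5.1.1's processed signal, background-subtracted and detrended within the array. The deposited log2 table of the authors, with 32349 probes, served only as an alternative; its normalization is not given in the sources used here, and the submitters' processing notes also name limma.

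Control spots and 101 probes with an outlier mark were left out. Spots of a probe were averaged, and log2 signals were centred on the array's 75th percentile over probes. Probes read well above background by 5 or more arrays were kept, and the brightest of them stood for its gene. Groups were compared with limma 3.58.1 in R 4.3.3, in 1 fit over all arrays, two-sided, Benjamini-Hochberg adjusted over 22013 genes, and called at an adjusted p under 0.05. The code was tested on simulated data. Python 3.11.15 and matplotlib 3.10.9 drew the figures.

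The members and lists were chosen with earlier results of these data known. All members are named. Of each list at most 4 called genes with the largest change are named, and the relatives list in full. One such gene is not reported here. For each measured member the 3 genes with an established symbol and the highest correlation are named. Of the promoter motifs, the NF-kB consensus and the IRF core replaced other patterns for NF-kB and ISRE after the matches had been seen; the first NF-kB pattern, with free bases where the consensus sets them, had matched windows of Il1rn and Il1r1, and the ISRE pattern none. Alternatives covered scaling, background, filters, probe choice, slides, scan days, replicate numbers and each mouse left out. Precision is limited by the number of arrays.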

Additional observations from a re-analysis of the deposited data

Results flagged for a closer look

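Dixon's test at the 95% level was run on 21 groups of 5 mice, where chance picks about 1 in 20 groups. It picked DSS vehicle mouse 3 for Il1rn, which read 3.14 where the next mouse of its group read 2.79. It also picked DSS vehicle mouse 4 for Il18bp, at -0.81 where the next mouse read -0.99. Without DSS vehicle mouse 3 the Il1rn difference from water mice was 0.69, with an adjusted p of 0.0122 in limma. That mouse also had the highest Il1b and Il1r2 readings, and its array was the only one on its slide.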

How the results depend on the processing

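Of the members, 2 were called in DSS vehicle mice against water mice, 0 in filgotinib mice against DSS vehicle mice and 1 in filgotinib mice against water mice. For DSS vehicle against water the count was 5 with normexp, 4 with only the 2 groups in the fit and 0 with slide as a fixed block; leaving out single mice gave 2 to 3. For filgotinib against DSS vehicle it was 1 with median centring, and 0 to 3 with single mice left out: 1 without filgotinib mouse 2 and 3 without filgotinib mouse 4. For filgotinib against water it was 0 with median centring, quantile normalization, the deposited table, the mean of a gene's probes, the replicate block, slide as a fixed or random block, and only the 2 groups in the fit; it was 2 without the filter on dim probes, and 0 to 1 with single mice left out. No called member changed sign.

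Among other named genes, Nlrp3 in DSS vehicle against water turned to 0.0289 with normexp and 0.11 with slide as a fixed block, within slide 2 and within the second scan day. Il1f8 in filgotinib against water turned to 0.0593 with normexp, and Krt19, an epithelial marker, to -0.00022 with quantile normalization and -0.0376 in the deposited table. The cause was not tested. The scan-day differences were added after seeing the data.

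Correlations of the deviations of same-numbered mice ran from -0.52 to 0.53; they were over 0.1 in 3 of 5 pairs of DSS vehicle and water mice, 2 of 5 of filgotinib and DSS vehicle mice and 0 of 5 of filgotinib and water mice, so not every pair deviated together and the numbers were not taken as pairs. With the replicate block the counts of members called were 3, 0 and 0. Dim probes limit Il1b, Il1r2 and Il18r1.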
